A study of Sus scrofa with 6 samples.

Results

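The genes described here carry the insulin signal in muscle from the receptor to the glucose transporter. They are the receptor INSR, its inhibitor GRB10, the receptor substrates IRS1 and IRS2, the phosphoinositide 3-kinase subunit PIK3R1, the kinases AKT1 and AKT2, the Rab regulators TBC1D4 and TBC1D1, and the transporter SLC2A4 (GLUT4). Rows were chosen by matching the Ensembl pig gene ID to its current symbol, which found 8 of the 10 genes among 25322 rows. IRS2 and AKT1 matched no row and are not analysed here. Of the 8, 6 reached an FPKM of 1 in 3 or more of the 6 libraries, the filter on low values, and were tested among 10005 genes. The rows used were INSR (ENSSSCG00000013566), GRB10 (ENSSSCG00000015631), IRS1 (ENSSSCG00000025729), PIK3R1 (ENSSSCG00000016958), AKT2 (ENSSSCG00000002989), TBC1D4 (ENSSSCG00000009464), TBC1D1 (ENSSSCG00000028983) and SLC2A4 (ENSSSCG00000023915).

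When insulin binds its receptor, the receptor phosphorylates IRS proteins, which recruit phosphoinositide 3-kinase, and the lipid it makes activates AKT. AKT phosphorylates TBC1D4 and TBC1D1, which otherwise keep Rab proteins inactive, and vesicles that carry GLUT4 then fuse with the cell surface. Skeletal muscle takes up glucose after a meal in this way, and contraction reaches the same Rab regulators through AMP-activated kinase. The signal itself is passed on by phosphorylation and by movement of vesicles, neither of which RNA levels show.

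RNA was sequenced from the longissimus dorsi, a back muscle, of 6 healthy female Tibetan pigs. The low altitude group was 3 pigs of a lowland line, bred for generations around Chengdu (average altitude 500 m) and fed each day as experimental animals. The high altitude group was 3 free-ranging pigs of the same breed in the Tibetan highland, at an average of 4000 m. Altitude, feeding, husbandry and the history of the line differ together between the groups and cannot be told apart. Time since the last meal, which alters several of these genes in other settings, is not given in the labels.

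Values are FPKM, fragments scaled to gene length and library size. The FPKM totals ran from 506611 to 566907 in the low altitude libraries and from 526368 to 571855 in the high altitude libraries. Absolute depth cannot be read from FPKM; the spacing of the lowest values gave relative depths of 0.880 to 0.999 at low and 0.858 to 1.22 at high altitude. Of 14 skeletal muscle marker symbols, in which MYLPF and MYL11 name the same gene, 8 had a row. Their summed FPKM was 38764 to 40306 at low and 35260 to 42856 at high altitude, led by the fast myosin light chain MYL11. High altitude library 1 stood apart. Its slow fibre markers, 4 of 11 with a row, led by TNNC1 over all libraries, summed to 10493, against 3106 to 4707 in the low altitude libraries and 2751 and 6874 in the other high altitude libraries. Its fibroblast and matrix markers, 9 of 10 with a row, led by COL3A1, summed to 300.0, against 795 to 1215 at low altitude and 1100 and 997 in the other high altitude libraries. Its adipocyte sum over 6 of 11 markers, led by CFD, was 84.2, against 113 to 126 at low altitude and 161 and 169 in the others. No matched marker of these lists was at 0 in all libraries.

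Among the 6 tested pathway genes, GRB10 and AKT2 had the highest mean FPKM over the 6 libraries, 36.3 and 35.9, and GRB10 was above AKT2 in only 3 of the 6, so their order is not set beyond the spread. IRS1 came next at 21.4, below AKT2 in 5 of 6 libraries, and TBC1D4 followed at 7.11, below IRS1 in 6 of 6. INSR at 3.47 and TBC1D1 at 2.99 could not be ordered, with INSR the higher in 3 of 6 libraries. These means placed GRB10, AKT2 and IRS1 above 89.9, 89.8 and 84.2% of the tested genes, and INSR and TBC1D1 above 39.5 and 34.3%. How much of each transcript these 6 rows cover was not tested, so this order is one of FPKM values and need not be that of the genes. The rows of SLC2A4 and PIK3R1, at 0.0718 to 0.298 and 0 to 0.142 FPKM, are left out of this order, since such a value need not be the level of the gene, for the reasons given with each gene.

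**Figure D1:**
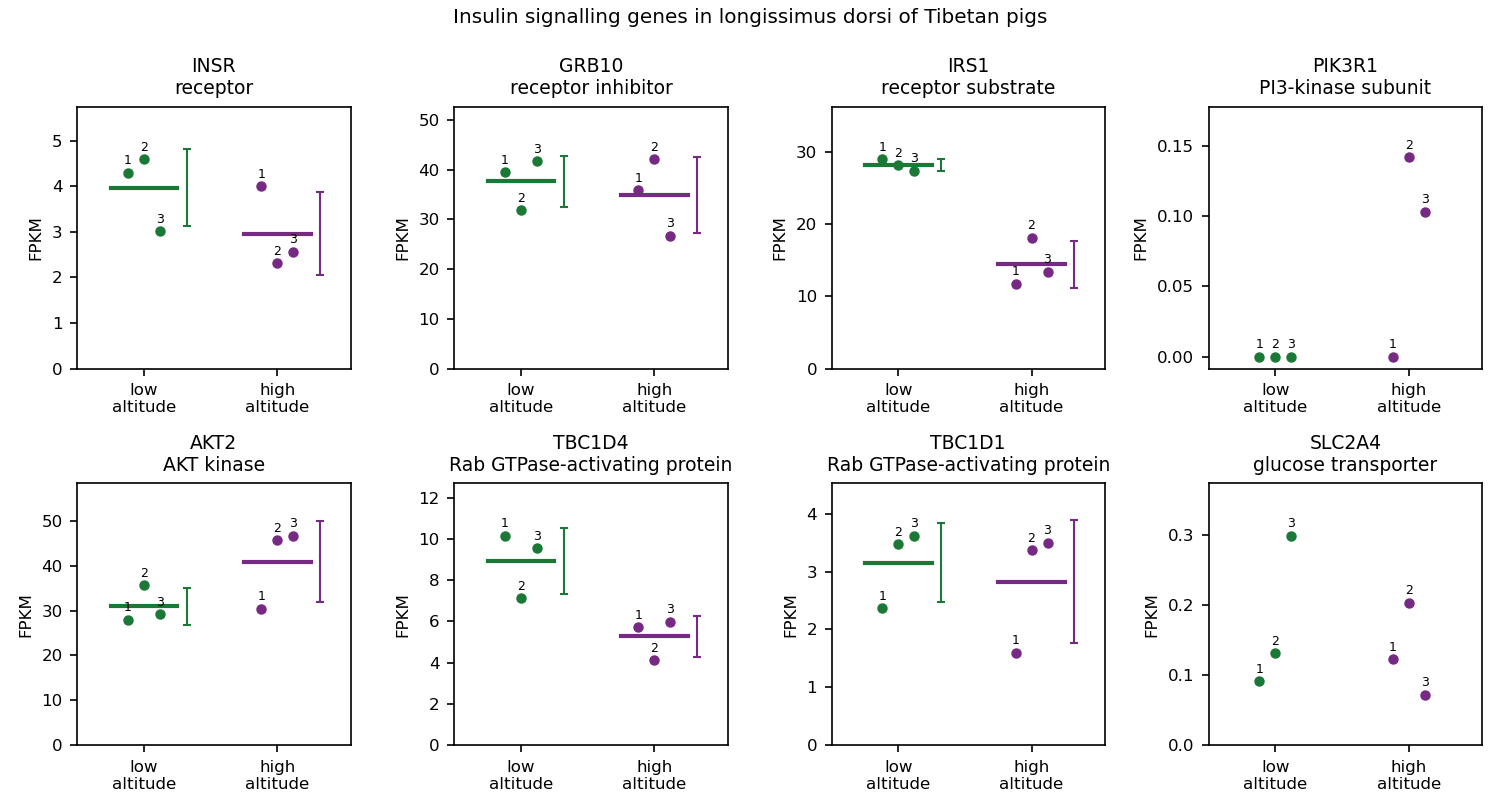
FPKM of the 8 matched genes in each library, low altitude (green) left of high altitude (purple); numbers mark the library, horizontal lines the group mean and vertical bars the SD over 3 animals, left out for PIK3R1 and SLC2A4, which did not pass the filter; axes differ in scale between panels. IRS1 and TBC1D4 are the genes whose groups do not overlap.

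The comparison asked which steps, from receptor to transporter, differ in muscle between pigs of the lowland and of the highland. IRS1, the main adaptor between the insulin receptor and phosphoinositide 3-kinase in muscle, had 1.95-fold the mean level at low altitude, and TBC1D4 had 1.70-fold. INSR, GRB10, AKT2 and TBC1D1 had overlapping groups. Over all genes, however, 0 of the 6 tested members passed an adjusted p of 0.05 (limma, Benjamini-Hochberg). At an unadjusted p under 0.05 there were 2 of the 6, IRS1 and TBC1D4, where 9.42% of all tested genes were. In the same limma test 23 of 10005 genes passed, 0.230%, 16 higher and 7 lower at low altitude; with each library rescaled to a common total it was 26 higher and 6 lower. Every low altitude library was above every high altitude library in 2 of the 6 members and below in none, where 16.1% of all tested genes did not overlap, 11.3% with low altitude above. The median log2 fold change, low minus high altitude on the log2(FPKM + 1) scale, was 0.24 over the 6 members and 0.041 over all tested genes.

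**Figure D2:**
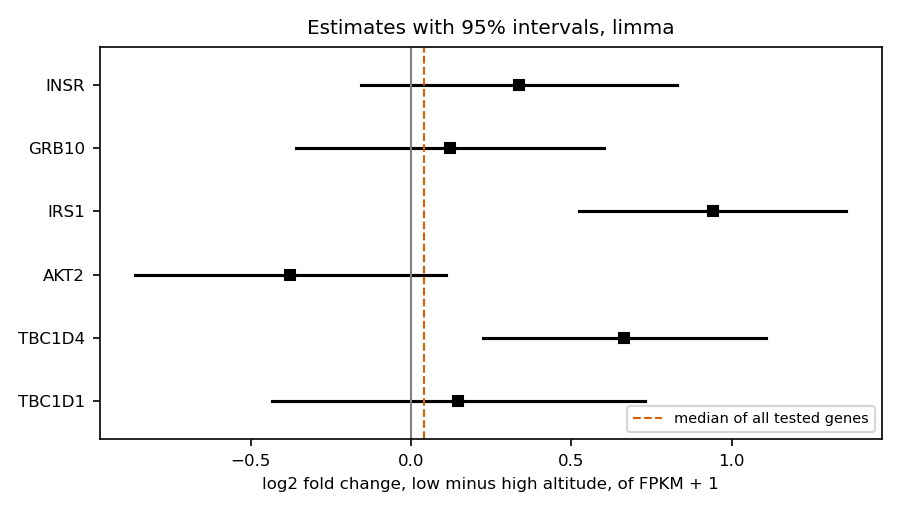
Log2 fold change (low minus high altitude, on the log2(FPKM + 1) scale) of the 6 tested genes in pathway order from the top, with 95% limma intervals that are not adjusted for the number of genes; the dashed line is the median of all tested genes, 0.041. The intervals of IRS1 and TBC1D4 lie above 0 and the other 4 include 0.

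At the receptor, INSR had 4.30, 4.59 and 3.01 FPKM in low altitude libraries 1, 2 and 3, against 4.01, 2.31 and 2.56 in high altitude libraries 1, 2 and 3. High altitude library 1 lay within the low altitude range, and the other high altitude libraries lay under all 3. The log2 fold change was 0.34 with a 95% interval from −0.15 to 0.83 (limma, Benjamini-Hochberg adjusted p = 0.667). Without high altitude library 1 it was 0.52 (limma, Benjamini-Hochberg adjusted p = 0.319), and without high altitude library 2 it was 0.22 (limma, Benjamini-Hochberg adjusted p = 0.861).

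GRB10, an adaptor that binds the activated insulin receptor and dampens its signal, had 39.5, 31.8 and 41.7 FPKM at low altitude, against 35.8, 42.1 and 26.7 at high altitude. Its highest and its lowest library were both from the highland, so the low altitude values sat inside the high altitude range. The log2 fold change of GRB10 was 0.12, with an interval from −0.36 to 0.60 (limma, Benjamini-Hochberg adjusted p = 0.893), and −0.05 without high altitude library 3.

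IRS1 was at 29.1, 28.3 and 27.5 FPKM in the low altitude libraries, against 11.8, 18.2 and 13.5 in the high altitude libraries. The groups did not overlap, and the 3 lowland animals lay close together, at 28.3 ± 0.793 (SD, n = 3), against 14.5 ± 3.30 in the highland animals. In bulk muscle fewer cells of a type and less RNA per cell cannot be told apart. The log2 fold change was 0.94 (SE 0.18, 95% interval 0.52 to 1.36), and it did not pass over all genes (limma, Benjamini-Hochberg adjusted p = 0.155). By unadjusted p, IRS1 ranked 66th of 10005 genes. Over 17 alternative settings, among them each library left out in turn, its log2 fold change stayed between 0.81 and 1.11 with a limma Benjamini-Hochberg adjusted p of 0.102 to 0.455. Without high altitude library 1, the library that stood apart, it was 0.81 (limma, Benjamini-Hochberg adjusted p = 0.147).

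PIK3R1, which encodes the regulatory subunit that docks on IRS proteins, stood at 0 in each low altitude library and in high altitude library 1, and at 0.142 and 0.103 FPKM in high altitude libraries 2 and 3. It did not pass the filter, and no fold is given. For 107 genes the deposited values hold an exact 0 in at least 1 library together with 5 FPKM or more elsewhere. Whether such a 0 is a failed estimate or an absent transcript cannot be told from the values. PIK3R1 is not among these genes, and how much of its transcript the row covers was not tested. Its row is therefore not read as the level of the gene. PIK3CA, the catalytic partner of PIK3R1, had 7.49, 5.68 and 6.07 FPKM at low altitude, against 6.82, 4.80 and 6.09 at high altitude, and its groups overlapped (named after its values were seen). The log2 fold change of PIK3CA was 0.11 (limma, Benjamini-Hochberg adjusted p = 0.886), and it was 0.0046 without low altitude library 1 and turned to −0.014 without high altitude library 2.

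AKT2, the AKT kinase tied to glucose uptake in mice and people, was the only tested member with an estimate below 0. It had 28.0, 35.6 and 29.2 FPKM at low altitude, against 30.4, 45.7 and 46.7 at high altitude. High altitude libraries 2 and 3 were above all others, while high altitude library 1 lay within the low altitude range. Its log2 fold change was −0.38, with an interval from −0.86 to 0.11 (limma, Benjamini-Hochberg adjusted p = 0.620). Leaving out high altitude library 1 gave −0.57 (limma, Benjamini-Hochberg adjusted p = 0.240).

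TBC1D4, also called AS160, is the Rab GTPase-activating protein through which AKT releases GLUT4 vesicles. It had 10.2, 7.13 and 9.57 FPKM in the low altitude libraries, against 5.71, 4.12 and 5.99 in the high altitude libraries. Each lowland animal was above each highland animal, with the narrowest gap between low altitude library 2 and high altitude library 3. The log2 fold change of TBC1D4 was 0.67 (SE 0.19, interval 0.22 to 1.11), the 266th of 10005 genes by unadjusted p, and did not pass over all genes (limma, Benjamini-Hochberg adjusted p = 0.342). Over the 17 alternatives the estimate lay between 0.53 and 0.80.

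TBC1D1, the related protein that also receives the contraction signal from AMP-activated kinase, had 2.37, 3.47 and 3.62 FPKM at low altitude, against 1.60, 3.37 and 3.50 at high altitude. Library 1 was the lowest in each group, and the other libraries of both groups lay within a narrow band. Its log2 fold change was 0.15 (interval −0.43 to 0.73; limma, Benjamini-Hochberg adjusted p = 0.893), and −0.11 without high altitude library 1.

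SLC2A4 was at 0.0911, 0.131 and 0.298 FPKM at low altitude, against 0.122, 0.203 and 0.0718 at high altitude, under the filter in all 6 libraries. The groups overlapped. Of all 25322 rows 47.1% had a lower mean, but only 17070 rows were above 0 in any library. Of the tested genes 0% had a lower mean. GLUT4 is known as the main glucose transporter of skeletal muscle, and the muscle markers above were abundant in the same libraries. The labels do not give the gene models behind the table, and how much of the SLC2A4 transcript the row covers was not tested. The row is therefore not read as the GLUT4 level of this muscle. IGF1R, the receptor for insulin-like growth factors, was listed at 0 in 6 of 6 libraries (named after its values were seen).

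Ratios between members within a library do not depend on how libraries are scaled. Of 6 planned ratios 3 could be computed. TBC1D4 to TBC1D1, both per length, was 4.29, 2.06 and 2.64 at low altitude, against 3.57, 1.22 and 1.71 at high altitude, so TBC1D4 was above TBC1D1 in 6 of 6 libraries and library 1 was the highest of each group. IRS1 to INSR was 6.75, 6.15 and 9.11 at low altitude, against 2.94, 7.86 and 5.25 at high altitude. GRB10 to INSR was 9.17, 6.93 and 13.8 at low altitude, against 8.94, 18.2 and 10.4 at high altitude. All 3 ratios overlapped between the groups, with log2 differences, low minus high altitude, of 0.55, 0.55 and −0.32. Leaving out 1 library moved each by more than 1.5 times, to as little as 0.21 for TBC1D4 to TBC1D1, 0.17 for IRS1 to INSR and −0.011 for GRB10 to INSR (without high altitude library 2, 1 and 2 in that order). Exact two-sided permutation tests over the 6 libraries gave p = 0.4, 0.3 and 0.6, each 0.6 after Benjamini-Hochberg adjustment over the 3, and the smallest p this design allows is 0.1.

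**Figure D3:**
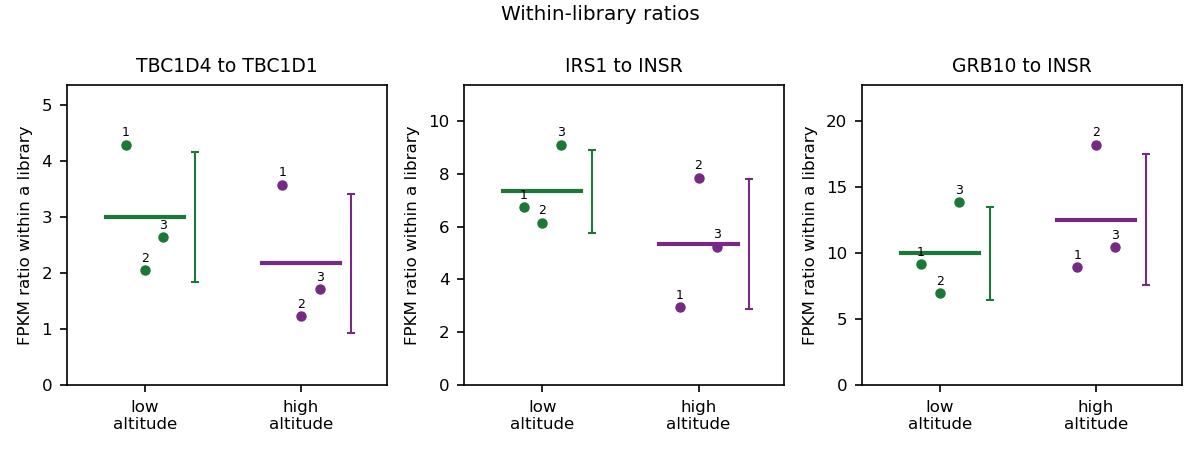
Ratio of FPKM within each library for 3 pairs of pathway genes, low altitude (green) left of high altitude (purple); numbers mark the library, horizontal lines the group mean and vertical bars the SD over 3 animals. The groups overlap in all 3 panels.

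Among 36 other genes of proximal insulin signalling (adaptors, phosphatases, phosphoinositide 3-kinase subunits and AKT regulators) 31 had a row and 21 were tested. Of these, 0 passed over all genes, and none reached an unadjusted p under 0.05 (limma), where 9.42% of all tested genes did. Their median log2 fold change was 0.084, and 14 of 21 estimates were above 0, where 57.7% of all tested genes were. The smallest p belonged to PHLPP1, a phosphatase that removes an activating phosphate from AKT, at 1.43 ± 0.282 FPKM at low and 0.966 ± 0.201 at high altitude. SOS1, the exchange factor that links insulin to RAS, was at 6.70 ± 0.488 and 5.52 ± 0.530. Both, and no other of the 21, had groups that did not overlap, where 16.1% of all tested genes did not (limma, Benjamini-Hochberg adjusted p = 0.582 and 0.619). PTPN1, the phosphatase PTP1B that acts on the receptor, was at 4.52 ± 1.99 at low and 3.30 ± 0.946 at high altitude, and the adaptor SHC1 at 5.98 ± 0.984 and 5.03 ± 1.27, with overlapping groups.

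**Figure D4:**
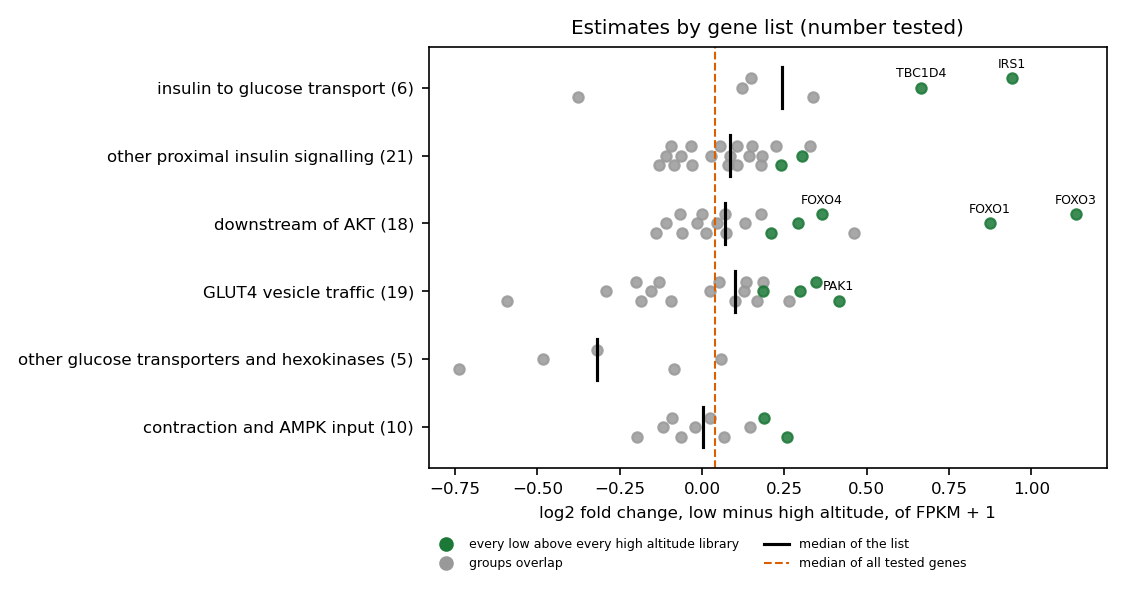
Log2 fold change (low minus high altitude, on the log2(FPKM + 1) scale) of each tested gene in 6 lists, with the number tested in brackets; green points have every low altitude library above every high altitude library, black ticks are list medians and the dashed line is the median of all tested genes, 0.041. Genes with an unadjusted p under 0.05 are named: IRS1, TBC1D4, FOXO1, FOXO3, FOXO4 and PAK1.

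Below AKT, 18 of 22 listed genes had a row, all 18 were tested and 0 passed over all genes, with 3 of 18 at an unadjusted p under 0.05 (limma), where 9.42% of all tested genes were. In 5 of the 18 every low altitude library was above every high altitude library, where that held for 11.3% of all tested genes. The 3 with a low p were the FOXO transcription factors, which AKT phosphorylates and keeps out of the nucleus. FOXO1 had 7.49, 5.70 and 9.61 FPKM at low altitude, against 2.58, 3.70 and 4.82 at high altitude. FOXO4 averaged 20.1 ± 2.40 FPKM at low and 15.3 ± 0.374 at high altitude. FOXO3 had 13.0, 7.30 and 13.8 at low altitude, against 5.53, 4.49 and 3.51 at high altitude. In each of the 3 the groups did not overlap, and the estimates were above 0 under the 3 other scalings. Their log2 fold changes were 0.87 for FOXO1, 0.36 for FOXO4 and 1.14 for FOXO3 (limma, Benjamini-Hochberg adjusted p = 0.325, 0.487 and 0.243). TSC2, a brake on mTOR that AKT relieves, was at 5.48 ± 0.342 FPKM at low and 4.30 ± 0.422 at high altitude, again without overlap (limma, Benjamini-Hochberg adjusted p = 0.540). The list's median log2 fold change was 0.071.

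Of 36 genes of GLUT4 vesicle traffic 24 had a row, 19 were tested and 0 passed over all genes, with 1 of 19 at an unadjusted p under 0.05 (limma), a smaller share than the 9.42% of all tested genes. In 4 of the 19 the groups did not overlap, where 16.1% of all tested genes did not. The gene with the low p was PAK1, a kinase that RAC1 activates in insulin-stimulated muscle, at 23.8, 22.7 and 21.1 FPKM at low altitude, against 17.6, 19.8 and 13.2 at high altitude, with no overlap. The log2 fold change of PAK1 was 0.42 (limma, Benjamini-Hochberg adjusted p = 0.522), and 0.26 without high altitude library 3. EXOC7, an exocyst subunit that tethers vesicles, averaged 9.96 ± 0.543 FPKM at low and 7.97 ± 1.26 at high altitude. LNPEP, the aminopeptidase that travels with GLUT4, averaged 9.17 ± 1.89 and 6.96 ± 0.915. Neither EXOC7 nor LNPEP overlapped between the groups (limma, Benjamini-Hochberg adjusted p = 0.587 and 0.604), whereas RALGAPA2, a subunit of a complex that restrains the GTPase RALA, did, at 2.63 ± 0.349 and 2.05 ± 0.498. The median of the list was 0.10.

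Of 14 other glucose transporters and hexokinases 11 had a row, 5 were tested and 0 passed over all genes. None was at an unadjusted p under 0.05 (limma), where 9.42% of all tested genes were. The 3 tested hexokinases, which trap glucose in the cell, had estimates below 0. HK2, the main isoform of muscle, was at 5.04, 6.75 and 3.21 FPKM at low altitude, against 14.3, 6.69 and 6.75 at high altitude, and high altitude library 1 alone stood far above the rest. Its log2 fold change was −0.74 (limma, Benjamini-Hochberg adjusted p = 0.550), and −0.41 without high altitude library 1. HK1 was at 4.71 ± 1.12 FPKM at low and 6.22 ± 1.93 at high altitude, and HK3 at 1.83 ± 1.14 and 2.81 ± 0.762. SLC2A12, a transporter related to GLUT4, had the highest level of the tested transporters, 7.33, 7.28 and 6.98 FPKM at low altitude, against 4.76, 8.42 and 7.98 at high altitude (named after its values were seen). SLC2A11 was at 3.17 ± 0.419 and 3.46 ± 0.744, and both transporters overlapped between the groups.

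High altitude library 1, with the highest slow fibre and the lowest matrix markers, was also the highest for INSR in its group and the lowest for IRS1, AKT2 and TBC1D1. Without it IRS1, INSR and TBC1D4 kept estimates above 0 and AKT2 below 0, with the values given above for IRS1, INSR and AKT2 and 0.72 for TBC1D4. That slow fibre and matrix markers stood apart together with these values rests on high altitude library 1 alone. The part of these markers in the results was not tested. Of the other marker lists, the 6 of 10 endothelium markers with a row, led by PECAM1, summed to 55.6 to 72.8 FPKM at low and 41.9 to 69.0 at high altitude, and the 8 of 10 smooth muscle and pericyte markers, led by TAGLN, to 116 to 124 and 87.2 to 130. The 6 of 10 macrophage markers, led by C1QA, summed to 31.7 to 76.9 and 39.3 to 55.0, the 7 of 10 lymphocyte markers, led by CD2, to 2.99 to 7.84 and 5.82 to 7.79, and the 4 of 8 erythroid markers, led by HBB, to 58.8 to 118 and 57.2 to 166. The 7 of 14 fast fibre symbols with a row, again with MYLPF and MYL11 both listed and led by MYL11, summed to 44618 to 45617 at low and 41274 to 50363 at high altitude. Each of these sums overlapped between the groups, as did those of slow fibre, adipocyte and matrix markers. A sum follows its most abundant gene, and single markers stood apart, named after their values were seen. KDR, an endothelial receptor for VEGF, had 1.90, 4.75 and 1.97 FPKM at low altitude, against 5.74, 7.69 and 7.22 at high altitude, and CD3D, a part of the T cell receptor complex, had 0.991, 1.07 and 1.07 at low altitude, against 2.04, 2.82 and 1.87 at high altitude. The groups did not overlap in either gene (limma, Benjamini-Hochberg adjusted p = 0.303 and 0.238), where 16.1% of all tested genes did not. Of the 6 tested endothelium markers, 3 had estimates above 0, opposite to KDR, with PECAM1 at 0.21. Other markers stood apart in the other direction. MYBPC2, a fast fibre marker, averaged 1556 ± 91.1 FPKM at low and 1166 ± 150 at high altitude, and TAGLN 50.6 ± 3.37 and 42.0 ± 2.16. In both, and in 1 macrophage marker, every low altitude library was above every high altitude library, where that held for 11.3% of all tested genes. Neither MYBPC2 nor TAGLN passed over all genes (limma, Benjamini-Hochberg adjusted p = 0.431 and 0.599). Of the 7 tested fast fibre markers 4 had estimates above 0. Among the 7 tested smooth muscle and pericyte markers only 2 did, so most went opposite to TAGLN. All 4 tested slow fibre markers had estimates below 0, with a median log2 fold change of −0.73, and overlapped between the groups. MYL3, a slow myosin light chain, averaged 527 ± 127 FPKM at low and 1037 ± 359 at high altitude (limma, Benjamini-Hochberg adjusted p = 0.415). Without high altitude library 1 the log2 fold changes were −0.80 for MYL3, −0.29 for TNNI1, −0.18 for TNNC1 and −0.066 for TNNT1. The part of these markers in the values of IRS1, TBC1D4 and the FOXO genes was not tested.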

How the data were processed

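Longissimus dorsi RNA of 6 pigs, each a separate animal per the labels, was made into strand-specific libraries with the dUTP method, per the labels' protocols. The authors deposited FPKM values for 25322 Ensembl pig IDs. TopHat2 2.0.11 and Cufflinks 2.2.1 are named in the submitters' processing notes with no role, with build, annotation and filtering not given in the sources used here; coordinates are therefore left out. A table of IDs gave 11804 of them a symbol.

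Values were tested as log2(FPKM + 1) with limma 3.58.1 in R 4.3.3 (empirical Bayes with trend, two-sided, low minus high altitude, Benjamini-Hochberg over the 10005 genes that reached an FPKM of 1 in 3 or more libraries). Folds are ratios of mean FPKM. Ratios between genes used an exact permutation test in scipy 1.17.1, and figures matplotlib 3.10.9 in Python 3.11.15. The steps were tested on simulated data. FPKM is not a count, so no count model was used and no counting interval is given. Genes that share sequence with close copies are uncertain, since how reads were divided is not stated. The pathway genes and lists were chosen with earlier results of these data known. Named genes are all members, of each other pathway list the up to 4 tested genes with the smallest unadjusted p, and the most abundant marker of each list. Genes with values given outside this rule were named after their values were seen, among them PIK3CA, IGF1R, SLC2A12, KDR, CD3D, MYBPC2 and MYL3. The ratios IRS1 to IRS2, AKT2 to AKT1 and SLC2A4 to SLC2A1 were not computed because a partner had no matched row. As alternatives, pseudocounts of 0.5 and 0.1, dropping the filter, a mean FPKM of at least 5, 3 other scalings, 3 other limma settings, a replicate block and each library left out in turn among the same 10005 genes were run; ratios were repeated with FPKM + 1, the block and libraries left out.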

Additional observations from a re-analysis of the deposited data

How the results depend on the processing

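In each of 17 alternatives 0 pathway genes, and 0 genes of the other 5 lists, passed over all genes (limma); with no filter PIK3R1 and SLC2A4 were tested as well. The direction held in every alternative for IRS1, INSR, AKT2, TBC1D4 and the 3 ratios, but leaving out 1 library moved the ratios' log2 differences to 0.21 to 0.98 (TBC1D4 to TBC1D1), 0.17 to 0.88 (IRS1 to INSR) and −0.58 to −0.011 (GRB10 to INSR). The direction turned for GRB10, whose log2 fold change was −0.052 to 0.27 with 1 library left out, and for TBC1D1, with −0.11 to 0.29 there and −0.040 with array weights. Estimates for INSR and TBC1D1 could not be had with the filter at a mean FPKM of 5. Over all genes the count of 23 was 6 with no filter, 38 with array weights, 9 after median-of-ratios scaling and 10 after quantile normalization. With 1 library left out it was 4 to 21, and 4, 6, 4 and 11 without low altitude library 3, low altitude library 1, high altitude library 3 and high altitude library 2. With a replicate block on the title numbers it was 19; correlations of same-numbered libraries' deviations were −0.015, 0.095 and −0.14, 1 of the 6 libraries correlated best with its own number, and no pathway gene's call changed. For the ratios the block cannot alter the mean differences of 0.55, 0.55 and −0.32; its exact p over sign changes of 3 pairs was 0.25, 0.5 and 1.0, with 0.25 the smallest possible. Rescaling to a common total moved the median log2 fold change of all genes to 0.10. With 3 animals a group, intervals of about 1 log2 unit limit what can be seen for each gene, and depth per gene is unknown.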

Other observations

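Contraction reaches TBC1D1 and TBC1D4 through AMP-activated kinase and calmodulin kinases, and 12 of 17 such genes had a row. Of these, 10 were tested and 0 passed over all genes, with none at an unadjusted p under 0.05 (limma), where 9.42% of all tested genes were. The median log2 fold change, low minus high altitude, was 0.0023. The catalytic subunits of AMP-activated kinase are not among the tested genes: PRKAA1 did not pass the filter and PRKAA2 had no matched row. The same held for the calmodulin kinase genes CAMK2A and CAMK2B in that order. SIK3, a kinase related to AMP-activated kinase, was at 9.31, 9.63 and 9.40 FPKM at low altitude, against 8.29, 6.59 and 8.46 at high altitude, with no overlap (limma, Benjamini-Hochberg adjusted p = 0.617). PRKAB1, a scaffold subunit of AMP-activated kinase, was at 2.60 ± 0.239 at low and 2.16 ± 0.284 at high altitude (SD, n = 3 each), also without overlap. These were the 2 of the 10 whose groups did not overlap, where 16.1% of all tested genes did not. PRKAG1, a nucleotide-binding subunit, was at 12.2 ± 2.72 and 13.9 ± 0.807, and CAMKK2, a kinase that can activate the complex, at 1.85 ± 0.301 and 2.09 ± 0.289, both with overlapping groups.

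All 15 ratios between pairs of the 6 tested pathway genes were read within each library, a step added after the data were seen. In 5 of the 15 the groups did not overlap, where 17.5% of the pairs among all tested genes above 0 in every library did not. The pairs share genes, so they are not independent, and IRS1 and AKT2 were each in 3 of the 5. IRS1 to AKT2 was 0.794 to 1.04 in the low altitude libraries, against 0.288 to 0.397 in the high altitude libraries, a log2 difference of 1.38. AKT2 to TBC1D4 was 2.75 to 4.99, against 5.33 to 11.1, and AKT2 to TBC1D1 was 8.08 to 11.8, against 13.3 to 19.1. AKT2 was above IRS1 in 5 of 6 libraries, all but low altitude library 1, with the FPKM of IRS1 closer to that of AKT2 in lowland muscle. How much of each transcript the 2 rows cover was not tested. GRB10 to IRS1 was 1.13 to 1.52 at low altitude, against 1.99 to 3.04 at high altitude, and IRS1 to TBC1D1 was 7.59 to 12.3, against 3.84 to 7.39.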
